A study of Homo sapiens with 4 samples.

Results

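The genes described here are 39 human genes that repair DNA crosslinks of the kind aldehydes make: Fanconi anaemia genes, their nucleases, homologous recombination factors, damage checkpoint kinases and translesion polymerases. They were listed by name, and each was read through the probe set that the platform annotation assigns to that gene alone, taking the brightest where there were several. Of the 39 genes, 35 had such a probe set, 1 each, among 18417 genes in all. FANCA, FANCD2, BRCA2 and RBBP8 were not analysed here. The cells were MCF12A, an established line of breast epithelium that does not form tumours, in monolayer culture, and their RNA was read on 4 arrays of the Affymetrix Human Gene 1.0 ST type. Control 1 was the unexposed culture of the ethanol experiment, and its counterpart spent 1 week in 25 mM ethanol. Control 2 was the unexposed culture of the acetaldehyde experiment, and its counterpart spent 1 week in acetaldehyde at 2.5 mM. The medium of all 4 cultures held cholera toxin, insulin, hydrocortisone and epidermal growth factor besides horse serum. Each group was 1 array, so no difference below has a replicate check and no p-value is given. A monolayer of 1 cell line holds none of the stroma of breast tissue, and the labels do not say whether the cultures were grown at the same time.

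Acetaldehyde, the first product of ethanol oxidation, reacts with DNA and can join its strands together. The Fanconi core complex, with its ubiquitin ligase FANCL and the conjugating enzyme UBE2T, marks the pair formed by FANCD2 and FANCI at a blocked replication fork. Nucleases held on the scaffold SLX4 then cut the crosslink free, REV1 and the polymerase subunit REV3L copy past the lesion, and the BRCA proteins and their helpers mend the broken strand by recombination. ATR and its target kinase CHEK1 signal stalled replication, and ATM signals broken ends. Many of these genes are transcribed mainly in cells that replicate their DNA, through E2F factors and related promoter elements.

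With either exposure the measured genes were mostly a little higher than in the matching control, and each stayed within 1.5-fold of it. RNA came from whole cultures, so a change in the share of cells that express a gene and a change in RNA per cell cannot be told apart. Levels are intensities, the probe set brightness on a linear scale, and differences are log2 differences between arrays, on which 1.5-fold is 0.58. Of the 35 genes, 26 had a mean log2 value over the 4 arrays of at least 7.28 (intensity 155), the median of all gene-naming values, and these are the genes counted below beside the 9262 genes of the array that passed the same filter. The other 9 genes were FANCB, FANCF, FANCL, FANCM, SLX4, EME1, FAN1, RAD51AP1 and RAD54L, and their values are given without being counted. Ethanol gave a median of 0.18 over the 26 genes, against 0.063 over all genes kept, and 21 of the 26 (80.8%) were higher, against 59.8% of all genes. Acetaldehyde gave a median of 0.15, against 0.0078, and 19 of the 26 (73.1%) were higher, against 51.8%. Measured instead against the control of the other experiment, the acetaldehyde median was 0.018 with 14 genes higher and 12 lower, and the ethanol median 0.10 with 16 higher and 10 lower. The unexposed cultures differed by more, from -0.80 to 0.67, with 13 genes higher and 13 lower in control 2. The -0.80 was BRIP1, which passed the filter only through the arrays of the ethanol experiment, and the next lowest was XRCC2 at -0.68. An exposed array was the highest of the 4 for 22 of the 26 genes (84.6%), against 55.2% of all genes kept, namely ethanol for 12 and acetaldehyde for 10. BARD1, 1 of those 12, passed the filter only through its ethanol array. The places of BARD1 and of BRIP1, which is also among the 12, in the ethanol counts and median are therefore no evidence of a difference.

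**Figure D1:**
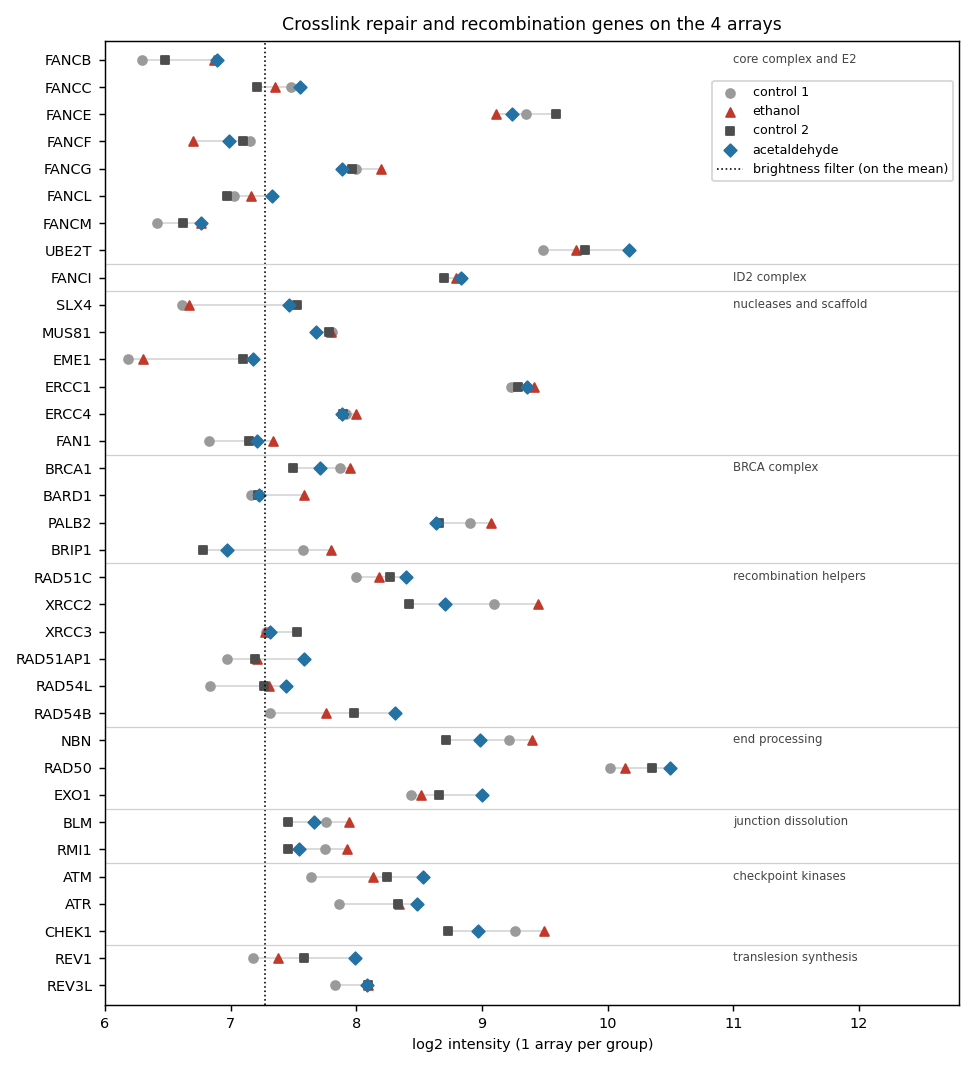
Log2 intensity (horizontal axis) of the 35 measured crosslink repair and recombination genes, 1 row each and grouped by role, on control 1 (grey circles), ethanol (red triangles), control 2 (dark squares) and acetaldehyde (blue diamonds), with the brightness filter as a dotted line. The grey bar of a row spans its 4 values; BRIP1, XRCC2, NBN and CHEK1 have both arrays of the ethanol pair above both arrays of the acetaldehyde pair, whereas RAD50, RAD54B, ATM and REV1 have control 2 and acetaldehyde above control 1 and ethanol.

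The start regions of 5 genes whose values are given in full below are shown because each holds an element of cell cycle promoters. They are printed from RefSeq (GRCh38.p14), 5′ to 3′, from 100 bases before an annotated start to 30 bases from it, in lower case with matches in capitals. Where a gene had several starts, the stretch with the most matches was printed. The stretches lie at chr11:108222967-108223096 (plus strand), chr11:125626256-125626385 (plus), chr17:61863499-61863628 (minus), chr7:152676112-152676241 (minus) and chr1:241848104-241848233 (plus).
ATM: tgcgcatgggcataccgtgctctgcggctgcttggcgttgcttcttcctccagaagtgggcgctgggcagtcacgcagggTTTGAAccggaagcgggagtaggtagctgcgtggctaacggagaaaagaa
CHEK1: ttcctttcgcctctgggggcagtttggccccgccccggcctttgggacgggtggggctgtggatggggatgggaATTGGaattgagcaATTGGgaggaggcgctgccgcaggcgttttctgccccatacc
BRIP1: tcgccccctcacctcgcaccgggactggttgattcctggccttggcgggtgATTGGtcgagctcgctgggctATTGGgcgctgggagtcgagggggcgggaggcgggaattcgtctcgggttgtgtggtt
XRCC2: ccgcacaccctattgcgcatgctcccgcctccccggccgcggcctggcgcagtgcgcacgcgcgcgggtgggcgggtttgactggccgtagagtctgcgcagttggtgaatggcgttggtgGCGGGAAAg
EXO1: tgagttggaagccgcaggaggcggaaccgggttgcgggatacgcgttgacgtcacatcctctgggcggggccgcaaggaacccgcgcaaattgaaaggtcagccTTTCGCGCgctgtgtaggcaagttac
In ATM the capitals mark TTTGAA, a cell cycle homology element, 20 bases before the start. In CHEK1 and BRIP1 they mark the reverse complement of CCAAT, the box bound by NF-Y, beginning 26 and 12 bases before the start in CHEK1 and 49 and 28 bases before it in BRIP1. In EXO1 and XRCC2 they mark an E2F element, TTTCGCGC from base 5 in EXO1 and GCGGGAAA, the reverse complement of TTTCCCGC, from base 22 in XRCC2, counting the start as base 1.

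Both strands of every 300-base window, from 250 bases before a start to 50 after it, were searched for 3 kinds of element. RefSeq windows were held for 36 of the 39 genes, 50 windows in all because some genes have several starts, and for 35116 windows of all genes. The E2F letters TTTGGCGC, TTTCGCGC, TTTCCCGC or TTTGGCGG were in 5 of the 50 windows (10.0%), against 3.35% of all windows, and those 5 belong to EXO1, FANCC, FANCD2, REV3L and XRCC2. CCAAT was in 20 of the 50 (40.0%), against 34.6%, and the cell cycle homology letters TTTGAA or TTCGAA were in 5 (10.0%), against 16.4%. A match describes the letters in the window and says nothing of binding.

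Of the checkpoint kinases, ATM and ATR had the largest ethanol differences among the 26 genes. ATM was at 199 in control 1 and 280.5 under ethanol, against 303 in control 2 and 369.9 under acetaldehyde. Its ethanol difference was 0.49, and 12.7% of all genes kept lay further from 0. ATR was at 232 in control 1 and 324 under ethanol, against 322 in control 2 and 358 under acetaldehyde, a difference of 0.48 with ethanol and 0.16 with acetaldehyde. In both kinases control 1 was the lowest of the 4 arrays and acetaldehyde the highest. ATM was also higher in control 2 than in control 1, by 0.60, more than with ethanol, and ATR by 0.47, so the ethanol values stood close to the other unexposed culture. CHEK1, which acts below ATR, was at 614 in control 1 and 721 under ethanol, against 424 in control 2 and 499.9 under acetaldehyde. It was higher with both exposures, by 0.23 and 0.24, but -0.53 in control 2 against control 1, opposite to the upstream kinases.

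Of the recombination helpers, RAD54B and XRCC2 were higher with both exposures and opposite between the controls. RAD54B, a motor protein that acts on DNA during recombination, was at 159 in control 1 and 217 under ethanol, against 252 in control 2 and 317 under acetaldehyde. It was higher by 0.45 with ethanol and 0.33 with acetaldehyde, and control 2 exceeded control 1 by 0.67. XRCC2, which assists strand exchange, was at 547 in control 1 and 697 under ethanol, against 343 in control 2 and 418 under acetaldehyde, with differences of 0.35 and 0.29, while control 2 was at -0.68 against control 1. For XRCC2 the lower value of the ethanol pair exceeded the higher value of the acetaldehyde pair, so the experiments were further apart than exposed and unexposed arrays. RAD51C, which acts in recombination complexes, was at 0.18 with ethanol and 0.13 with acetaldehyde. XRCC3, the partner of RAD51C, was at -0.007 with ethanol and -0.22 with acetaldehyde. The dimmer RAD54L, the related motor protein, was at 0.47 with ethanol and 0.17 with acetaldehyde, and RAD51AP1, a recombination cofactor, at 0.25 and 0.39.

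In the BRCA complex all 4 measured genes were higher with ethanol, by a median of 0.19, against 59.8% of all genes kept. With acetaldehyde 3 of the 4 were higher, against 51.8%, and the median of the 4 was 0.098. Those 3 include BARD1 at 0.0046. BARD1, the RING partner of BRCA1, was at 143 in control 1 and 192 under ethanol, against 149 in control 2 and 149 under acetaldehyde. The ethanol array stood apart from the other 3 arrays of BARD1, which lay between 143 and 149, just under the filter, and its ethanol difference was 0.42. That array alone lifted BARD1 over the filter, so its place among the genes counted higher with ethanol is no evidence of a difference. BRCA1, which with BARD1 forms a ubiquitin ligase and recruits the recombination machinery, was at 234 in control 1 and 247 under ethanol, against 181 in control 2 and 209.6 under acetaldehyde. Its differences of 0.08 and 0.21 were smaller than the -0.37 between the unexposed cultures. BRIP1, the helicase that binds BRCA1, was at 191 in control 1 and 223 under ethanol, against 109.7 in control 2 and 125 under acetaldehyde. Its difference between the unexposed cultures was -0.80, against 0.22 with ethanol and 0.19 with acetaldehyde. BRIP1 passed the filter only through the arrays of the ethanol experiment. Its rank as the largest of the 26 between the controls, and its place among the genes counted higher with ethanol, are therefore no evidence of a difference. PALB2, the bridge between BRCA1 and BRCA2, was at 0.16 with ethanol and -0.026 with acetaldehyde.

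**Figure D2:**
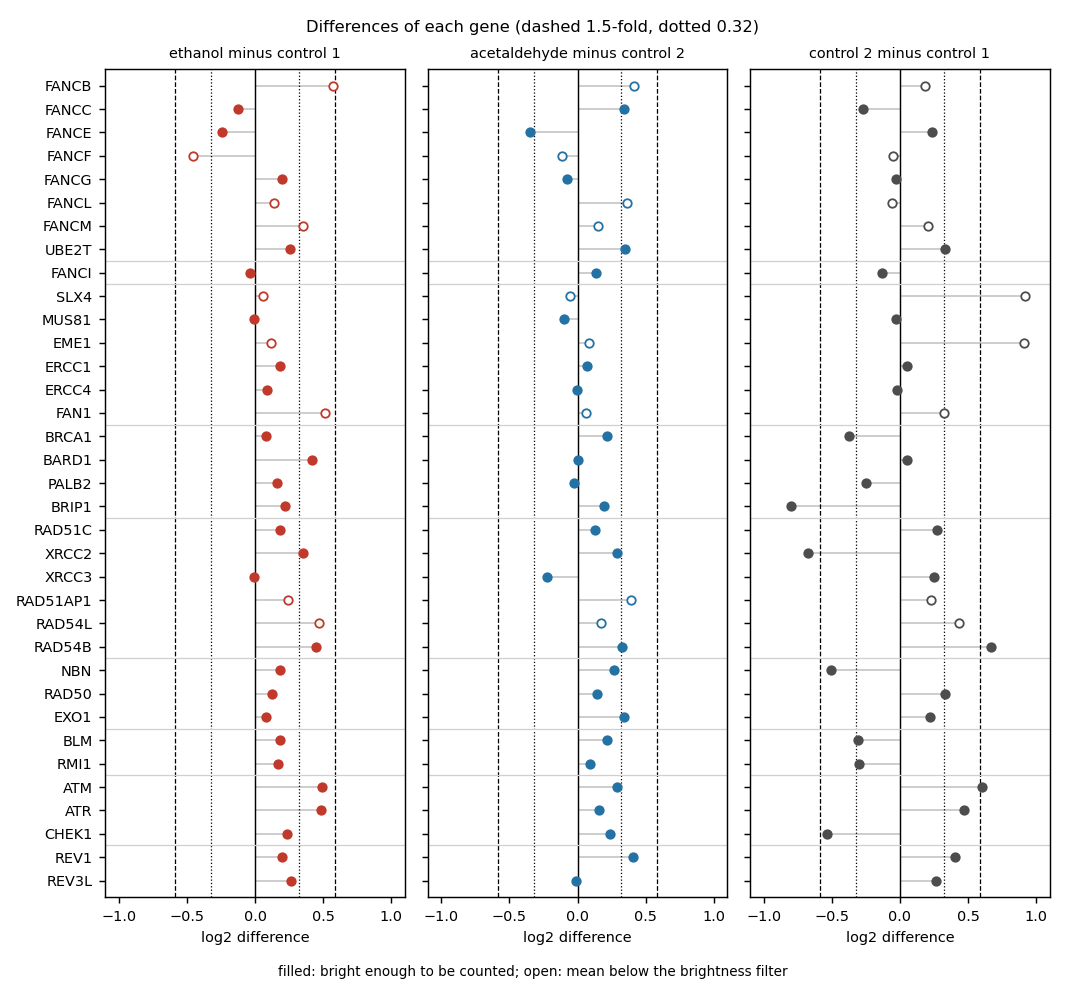
Log2 difference (horizontal axis) of each of the 35 genes in ethanol minus control 1, acetaldehyde minus control 2 and control 2 minus control 1, with filled points for the 26 genes counted and open points for the 9 dimmer ones. No point in the exposure panels passes the dashed 1.5-fold lines, whereas 6 do between the controls, 2 of them dimmer genes.

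The Fanconi core complex, taken with the conjugating enzyme UBE2T, was split in direction. Of these 4 counted genes, UBE2T and FANCG were higher with ethanol, and UBE2T and FANCC with acetaldehyde. The other 2 were lower each time. UBE2T, the conjugating enzyme, was at 717 in control 1 and 858 under ethanol, against 904 in control 2 and 1152 under acetaldehyde, with differences of 0.26 with ethanol and 0.35 with acetaldehyde. FANCE, a bridge from the core complex to FANCD2, was the only counted gene lower by at least 0.32 (log2) with acetaldehyde. It was at 653 in control 1 and 552 under ethanol, against 769 in control 2 and 604 under acetaldehyde, so both exposed arrays lay below both controls, with differences of -0.24 and -0.35. FANCC, the partner of FANCE, was at 178 in control 1 and 164 under ethanol, against 148 in control 2 and 187 under acetaldehyde, which is -0.12 with ethanol and 0.34 with acetaldehyde. FANCG, an adaptor of the core complex, was at 0.20 and -0.079. FANCI, the partner of FANCD2, was at 456 in control 1 and 444 under ethanol, against 415 in control 2 and 457 under acetaldehyde, the narrowest spread among the genes given here on all 4 arrays, with differences of -0.037 and 0.14.

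The dimmer core genes, whose means lay below the filter, were mostly higher with both exposures. FANCL, the ligase itself, was at 130.1 in control 1 and 143 under ethanol, against 125 in control 2 and 161 under acetaldehyde, or 0.14 with ethanol and 0.36 with acetaldehyde. FANCB, which holds FANCL in the complex, had the largest ethanol difference of the 35 genes, 0.57, from 78.5 to 116, and 0.41 with acetaldehyde. FANCM, the helicase that brings the complex to DNA, was at 0.35 and 0.15, and FANCF, an adaptor, at -0.45 and -0.11. For FANCB, FANCL and FANCM both exposed arrays were above both controls, and for FANCF both were below.

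The crosslink nucleases and their scaffold differed by 0.18 or less with either exposure, apart from FAN1. ERCC1 with ethanol stood at the median of the 26 genes. ERCC1 and ERCC4, partner subunits of a nuclease, were at 0.18 and 0.085 with ethanol and at 0.072 and -0.0046 with acetaldehyde. MUS81, another structure-specific nuclease, was at -0.0084 and -0.10. Its partner EME1 and the scaffold SLX4 were dim and differed chiefly between experiments. SLX4 was at 97.7 in control 1 and 102 under ethanol, against 184 in control 2 and 177 under acetaldehyde, and EME1 at 72.7 in control 1 and 79.0 under ethanol, against 137 in control 2 and 145 under acetaldehyde. In both genes the arrays of the acetaldehyde experiment exceeded those of the ethanol experiment, with 0.91 between the controls for either gene, and still 0.68 for SLX4 and 0.62 for EME1 with all 4 arrays normalized together, while exposures gave 0.056 and -0.058 for SLX4 and 0.12 and 0.084 for EME1. FAN1, a nuclease recruited by ubiquitylated FANCD2, was at 0.52 with ethanol, from 113 to 162, and 0.066 with acetaldehyde.

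End processing, junction dissolution and translesion genes completed the pathway. All 7 counted genes were higher with ethanol, against 59.8% of all genes kept. EXO1, an exonuclease that widens cut ends, was at 346 in control 1 and 366 under ethanol, against 404 in control 2 and 511 under acetaldehyde, or 0.078 with ethanol and 0.34 with acetaldehyde. RAD50 and NBN, subunits of the complex that holds broken ends, were at 0.12 and 0.18 with ethanol and 0.15 and 0.27 with acetaldehyde, and stood on opposite sides between the controls (0.33 and -0.50). The helicase BLM and its cofactor RMI1, which untangle joined strands, were at 0.18 and 0.17 with ethanol and 0.21 and 0.09 with acetaldehyde. REV1, the scaffold of translesion polymerases, was at 145 in control 1 and 166 under ethanol, against 192 in control 2 and 254 under acetaldehyde. Its acetaldehyde difference of 0.41 was the largest of the 26 genes, and 4.63% of all genes kept lay further from 0, although control 2 exceeded control 1 by 0.40. REV3L, the catalytic subunit of polymerase zeta, was at 0.26 with ethanol and -0.0097 with acetaldehyde.

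Against the whole array, none of the genes reached 1.5-fold with an exposure, while at a lower threshold acetaldehyde had a larger share of them higher than of all genes. With ethanol, 0 of the 26 were at least 1.5-fold higher or lower, where 5.25% of all genes kept were higher and 3.7% lower. With acetaldehyde it was again 0 of 26, where 0.605% were higher and 0.875% lower. At a log2 difference of 0.32, 5 of 26 (19.2%: ATM, ATR, RAD54B, BARD1 and XRCC2) were higher with ethanol against 17.3% of all genes, near the background, and 0 were lower against 9.37%. BARD1 is among the 5 only because its ethanol array lifted its mean over the filter, so its place in that count is no evidence of a difference. With acetaldehyde 5 of 26 (19.2%: REV1, UBE2T, FANCC, EXO1 and RAD54B) were higher by 0.32 against 4.89% of all genes, and 1 (3.85%), FANCE, was lower against 4.98%. That count of 5 depends on scaling. With all 4 arrays normalized together UBE2T (0.311) and EXO1 (0.321) fell below the threshold of 0.322. With 32 intensity units added before log2, FANCC (0.287), RAD54B (0.296) and EXO1 (0.317) did. The share of all genes past 0.322 was not counted under those settings. The median size regardless of sign was 0.18 with ethanol for both the 26 genes and all genes, and 0.20 against 0.12 with acetaldehyde. The usual size with ethanol was therefore that of any gene, and with acetaldehyde somewhat above it, both well under 1.5-fold.

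**Figure D3:**
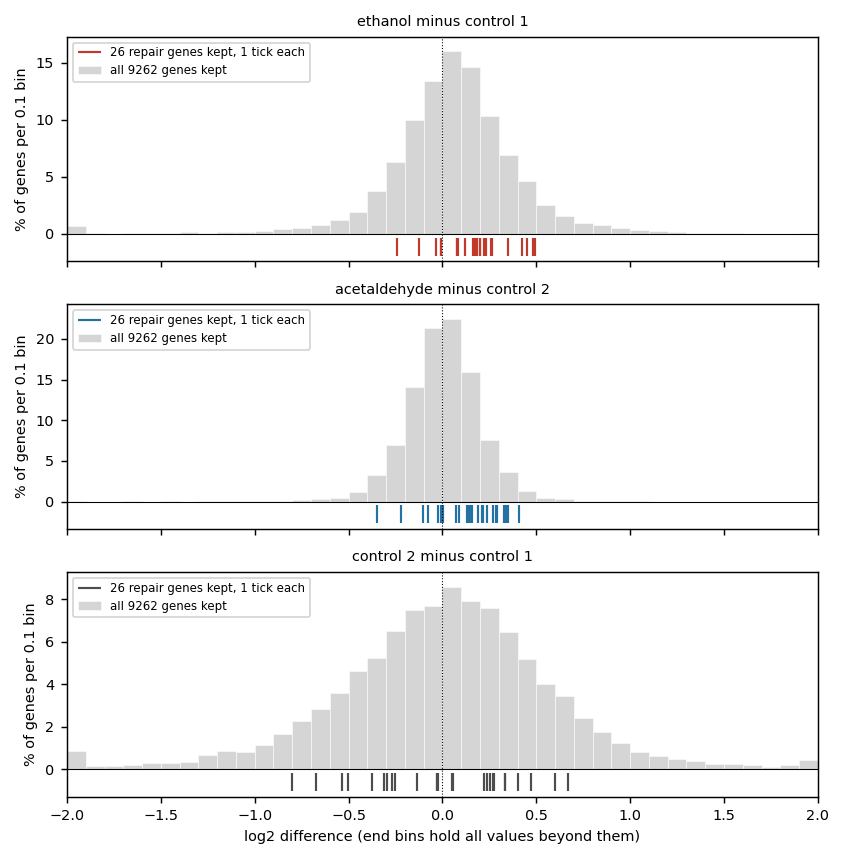
Share of the 9262 genes kept in bins of 0.1 of the log2 difference (grey bars) with the 26 repair genes as ticks below, for the 3 comparisons. The ticks lie mostly to the right of 0 with either exposure and on both sides between the controls. With acetaldehyde 6 ticks lie beyond 0.32 on either side, where the grey bars are low.

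The exposure comparisons share no array, so their values can be set side by side. Of the 26 genes, 17 were higher with both exposures (65.4%), against 36.5% of all genes kept, 3 were lower with both, against 24.8%, and 6 had opposite signs, against 38.6%. The 3 lower genes were FANCE, MUS81 and XRCC3. The 17 included ATM, RAD54B, XRCC2, ATR, CHEK1, UBE2T, REV1 and NBN. They also included BARD1, which passed the filter only through its ethanol array, and BRIP1, which passed only through the arrays of the ethanol experiment. The places of BARD1 and BRIP1 in that count are therefore no evidence of a difference. With acetaldehyde BARD1 was at 0.0046, and that value changed sign after centring on the median of all genes. The other 94 repair genes of the lists described below that passed the filter were higher with ethanol in 76.6% of cases and with acetaldehyde in 70.2%.

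**Figure D4:**
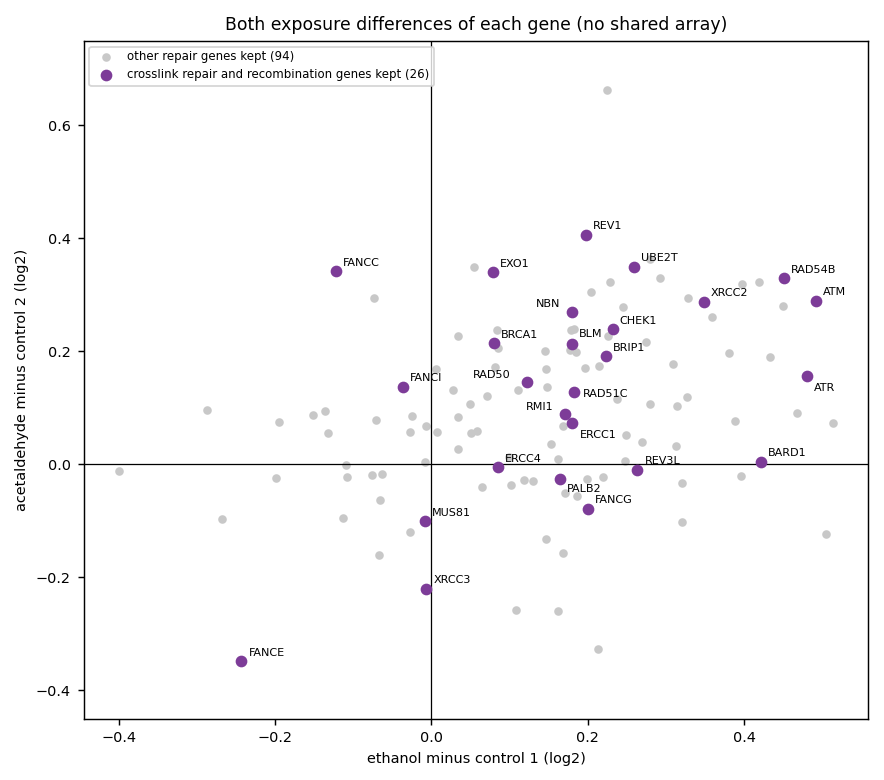
Ethanol minus control 1 (horizontal axis) against acetaldehyde minus control 2 (vertical axis), both as log2 differences, for the 26 crosslink repair and recombination genes (purple, named) and 94 other repair genes (grey). The upper right region holds 17 of the 26, with ATM and RAD54B furthest out, and FANCE, MUS81 and XRCC3 lie at the lower left, where FANCE is the furthest out of the 3.

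The unexposed cultures were compared to see how far the same genes differ with no exposure. Between control 2 and control 1, 2 of the 26 were at least 1.5-fold higher (RAD54B and ATM), against 13.2% of all genes kept, and 2 were lower (BRIP1 and XRCC2), against 12.9%. BRIP1 passed the filter only through the arrays of the ethanol experiment, where it was high, so its place in that count is no evidence of a difference. At 0.32 (log2), 6 were higher (26.8% of all genes) and 5 lower (24.7%). For 20 of the 26 genes the controls were further apart than ethanol was from control 1, against 67.4% of all genes kept, and for 17 they were further apart than acetaldehyde was from control 2, against 78.8%. Of the 13 genes lower in control 2, 7 were higher with both exposures, against 1641 of 4405 such genes among all genes kept. Of the 13 higher in control 2, 10 were, against 1742 of 4857. Those 7 include BRIP1, and those 10 include BARD1, which passed the filter only through its ethanol array. The places of BRIP1 and BARD1 in these counts are no evidence of a difference. Both exposure comparisons share a control array with this one. The value distributions of the experiments differed, as from separate normalization. Bringing all 4 arrays to 1 distribution left 1 gene 1.5-fold apart, XRCC2 at -0.66, with ATM at 0.52 and RAD54B at 0.54. BRIP1 went to -1.05 and below the filter. Of the 9287 genes then kept, 1146 were at least 1.5-fold higher and 1216 lower. BARD1 alone of the 26 changed sign between the controls under that setting, and its acetaldehyde value near 0 changed sign after centring on the median of all genes. Culture, scan and normalization cannot be told apart from the experiment here.

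Related repair pathways were mostly higher too. Among all genes kept, 59.8% were higher with ethanol and 51.8% with acetaldehyde. Of 20 other recombination factors kept, 16 were higher with ethanol (median 0.17) and 13 with acetaldehyde (0.13), with the helicase WRN at 0.42 and 0.32. Of 11 other Fanconi and crosslink factors, 8 were higher with either exposure (medians 0.082 and 0.087), with MAD2L2, the partner of REV3L, at 0.40 and -0.021. Of 17 other checkpoint genes, 13 were higher with ethanol (0.19) and 14 with acetaldehyde (0.085). All 7 other translesion genes were higher with ethanol (0.20) and 6 with acetaldehyde (0.12), with the replication clamp PCNA at 0.45 and 0.28. None of these 4 lists had a gene 1.5-fold apart with either exposure.

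Mismatch repair, with 5 genes kept, was higher throughout, with medians of 0.25 and 0.26, and held the only counted repair gene 1.5-fold apart with an exposure, MLH3, a protein of the MutL family, which was at 163 in control 1 and 190.4 under ethanol, against 201 in control 2 and 318 under acetaldehyde. Medians with ethanol and acetaldehyde were 0.071 and 0.028 for 12 nucleotide excision genes, 0.10 and 0.033 for 13 base excision genes, and 0.051 and 0.096 for 9 end joining genes. These pathways mend single-strand lesions or join ends without a template. With ethanol they stood nearer to the median of all genes (0.063) than the 26 genes did. So did the other Fanconi and crosslink factors (0.082), and these differences were not tested.

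Cell cycle transcripts were also mostly higher in exposed cultures, where 59.8% of all genes kept were higher with ethanol and 51.8% with acetaldehyde. Of 25 S phase genes 21 were higher with ethanol (median 0.21) and 17 with acetaldehyde (0.089), and between the controls the median was -0.18. Of 19 G2 and M phase genes 18 were higher with ethanol (0.42) and 14 with acetaldehyde (0.11), with 0.88 between the controls. The cyclin CCNE2 was at 0.42 with ethanol, 0.50 with acetaldehyde and -1.63 between the controls, and CDC6, a replication licensing factor, at 0.51, 0.13 and -0.86. CCNE1, another cyclin, was at 0.65, 0.15 and 0.26. Of the 25 S phase genes 16 were lower in control 2 than in control 1, and 9 were higher. Of the 26 repair genes 13 were lower and 13 higher. The part of cell cycle phase in the repair values was not tested.

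**Figure D5:**
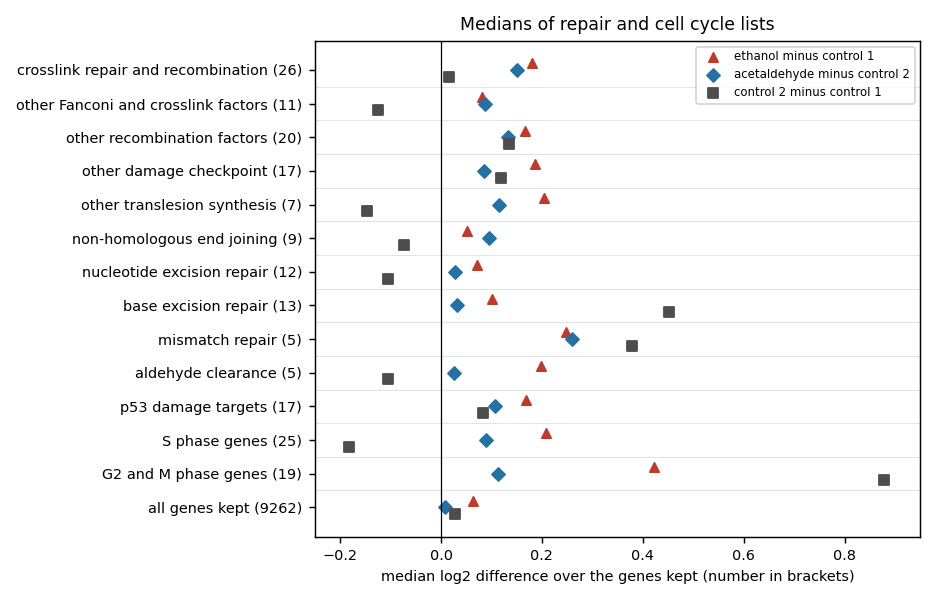
Median log2 difference (horizontal axis) over the genes kept of each repair and cell cycle list, in the 3 comparisons, with the number of genes in brackets and all genes kept at the bottom. Medians of the repair lists are above 0 with both exposures and on both sides of 0 between the controls, and the G2 and M phase list reaches 0.88 between the controls.

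Epithelial markers were present on all 4 arrays, though single markers differed by more than the repair genes. Of 13 breast epithelial markers 11 had a probe set of their own, and 10 or 11 of these reached the filter intensity on each array, with summed intensities between 35070.2 and 43869.5. Among them the keratin KRT14 was at -0.66 with ethanol, -0.95 with acetaldehyde and -1.68 between the controls. The keratin KRT8 was at 0.75, 0.22 and -0.29, and the adhesion molecule EPCAM at 0.70, 0.35 and -1.21. Of 18 markers of blood, vessel, stromal, muscle and fat cells, 4 to 6 did, with sums of 3113 and 3321 in control 1 and its ethanol counterpart and of 4104 and 3727 in control 2 and its acetaldehyde counterpart. The part of epithelial and other markers in the repair values was not tested. KRT17 and TP63 were not analysed here. Over all 33297 probe sets the median intensity was 90.2 to 92.2 in the ethanol experiment and 113.0 to 113.8 in the acetaldehyde experiment. Precision is limited by the number of arrays.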

How the data were processed

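The 4 arrays, 1 per group, were grouped by the sample labels. The values the authors deposited are linear intensities, 1 for each probe set on each array. RMA is named in the submitters' processing notes, with software and version not given in the sources used here. Log2 was taken here with no offset. Sorted log2 values differed by a mean of 0.0268 to 0.0398 within an experiment and 0.270 to 0.285 between experiments, as from separate normalization. Of 33297 probe sets, 19460 carried 1 gene symbol, 1754 several and 12083 were not named here, and 19429 of the 19460 matched the RefSeq gene table of GRCh38.p14 by identifier. The brightest probe set stood for each of 18417 genes, of which 9262 had a mean log2 value of at least 7.28 (intensity 155). Differences are log2, called at 1.5-fold (0.585) or at 0.322. Log2 values had been planned for, so log2 was taken first. There was no test, because each group is 1 array. The genes and lists were chosen with earlier results of these data known. All 39 genes are accounted for. Values on all 4 arrays are given for genes 1.5-fold apart in any comparison, the 5 largest differences among those kept in each, and FANCD2, FANCI, BRCA1, BRCA2, ATM, ATR and FANCL where measured. Of other lists, genes named are among the 3 with the largest exposure difference. The alternatives were normalization of all 4 arrays together, centring, other filters, folds, an offset, probe set means and the other control. Steps were tested on simulated data. Python 3.11.15, pandas 2.3.3 and matplotlib 3.10.9 were used.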

Additional observations from a re-analysis of the deposited data

Results flagged for a closer look

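FANCC was the only counted gene whose differences with ethanol (-0.12) and acetaldehyde (0.34) had opposite signs and were both at least 0.1 in size. Each is 1 array against 1, and the difference between the exposures was not tested.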

How the results depend on the processing

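The ethanol median over the genes kept stayed between 0.10 and 0.18 under every alternative run, and the acetaldehyde median between 0.12 and 0.16, except against the control of the other experiment, where it was 0.018. Against that control 4 of the 26 genes were 1.5-fold apart with ethanol and 6 with acetaldehyde, instead of 0. Of all 9262 genes kept, 1463 were then higher and 1079 lower with ethanol, and 1221 higher and 1150 lower with acetaldehyde. At 0.32 (log2) against their own controls 5 and 6 of the 26 were apart. With acetaldehyde UBE2T, EXO1, FANCC and RAD54B each fell below that threshold under joint normalization, centring or the offset. With ethanol XRCC2 did so under joint normalization (0.27). Among all genes 17.3% were higher and 9.37% lower with ethanol at that threshold, and 4.89% and 4.98% with acetaldehyde. All other alternatives kept both counts at 0. The median between the controls, 0.015, turned to -0.11 with all 4 arrays normalized together and to -0.012 after centring, and was 0.18 over 35 genes with no filter. The count of 4 genes apart between the controls became 1 (0 higher, 1 lower) with joint normalization. Of the 9287 genes then kept, 1146 were higher and 1216 lower. With an offset of 32 the count became 2 (0 higher, 2 lower), and 1027 of 9283 genes kept were higher and 1074 lower. It was 0 at 2-fold and 11 at 0.32 (log2), where 26.8% of all genes were higher and 24.7% lower. Over all genes kept, the ethanol calls at 1.5-fold, 486 higher and 343 lower, turned to 353 and 373 with joint normalization and to 383 and 421 after centring. With no filter, the calls between the controls went from 1223 higher and 1197 lower to 3889 and 1489. The cause of these shifts was not tested. Of the 51 single differences of genes given on all 4 arrays, 9 moved by at least 0.1 with joint normalization, by up to 0.29. Against the control of the other experiment 30 of 34 such differences moved by at least 0.1, by up to 0.91, and 14 changed sign. No paired analysis was possible because each group holds 1 array, and for the same reason no array could be left out. Signal near background limits the 9 dim genes.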

Other observations

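Genes that clear aldehydes before they reach DNA were higher with ethanol in 4 of the 5 kept (median 0.20), against 59.8% of all genes. Their acetaldehyde median stood near 0 (0.025). ALDH1B1, a mitochondrial aldehyde dehydrogenase, was at 1006 in control 1 and 1541 under ethanol, against 928 in control 2 and 944 under acetaldehyde, so the ethanol array alone stood apart. ADH5, which clears formaldehyde, was at 380.0 in control 1 and 532 under ethanol, against 585 in control 2 and 554 under acetaldehyde, with control 1 apart from the other 3 arrays. Targets of p53, which answer DNA damage, went both ways. With ethanol 9 of 17 were higher (59.8% of all genes kept), and with acetaldehyde 11 of 17 (51.8%). Among them ZMAT3 was at 0.89 with ethanol and 0.83 between the controls, SESN1 at 0.86 and 1.81, and SESN2 at -0.79 and -0.93, so each ethanol difference had a counterpart between unexposed cultures, and both comparisons share control 1.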
